A study of Mus musculus with 4 samples.

Results

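Nuclei of the largest luminal cluster of the fetal mouse mammary gland were compared with nuclei of the adult mature luminal clusters, to ask how much of the chromatin of hormone-sensing cells was already open before birth. The fetal group was every nucleus that the authors' deposited table placed in class 9 in the fetal libraries, 385 nuclei in replicate 1 and 652 in replicate 2. The adult group was every nucleus in class 2 or class 11 in the adult libraries, 1002 in replicate 1 and 1074 in replicate 2. Together these were 3113 of the 7846 nuclei in the table. The 19 adult nuclei in class 9 and the 10 fetal nuclei in classes 2 and 11 entered neither group. The classes carry numbers only, and how the authors made them is not given in the sources used here. They divide the same nuclei that are compared, so the size of the difference was in part set by the clustering, and stage and cluster cannot be told apart.

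The assay was ATAC-seq on single nuclei. In it the transposase Tn5 cuts and tags open DNA, and a pair of barcodes marks the nucleus. All libraries came from wild-type (WT) CD1 mice, an outbred strain, and from mammary cells sorted as EpCAM+ and Lin-, that is, epithelial and free of blood and vessel markers. Fetal glands were of embryonic day 18 and adult glands of 8 weeks of age. Each stage had 2 biological replicates, and the labels name no treatment or altered allele. How many animals were pooled in a library is not given in the sources used here. The p-values therefore rest on the spread between these 2 libraries per stage. The edgeR and limma tests draw each feature's spread toward that of all features, so a p-value does not measure a feature's own spread alone. The sums over nuclei held 2835995 and 6657005 reads in the fetal and 5744170 and 8181983 reads in the adult replicates, and the median nucleus held 5807, 8382, 4643.5 and 6160 reads in the same order. No barcode occurred in more than 1 library.

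Mature luminal cells line the mammary ducts and carry the receptors for oestrogen, progesterone and prolactin. They pass hormone signals on to neighbouring cells through secreted factors such as amphiregulin and RANK ligand. FOXA1 and GATA3 are transcription factors that open and hold chromatin for the oestrogen receptor in these cells. Luminal progenitors, the other adult luminal population, lack most of these receptors and are marked by ELF5 and KIT, and alveolar milk-producing cells arise from them.

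The cluster numbers were checked against markers by counting reads over gene spans, here the gene body with 2000 bases on either side. Levels are in CPM, reads per 1e6 reads in tested spans, scaled for the 10 sums of the groups and clusters set side by side. The 7 luminal markers, among them Krt8, Krt18 and Epcam, summed to 645 and 681 CPM in fetal class 9, to 738 and 688 in the adult mature luminal clusters and to 210 and 192 in adult basal classes 1 and 8. One of the 7, the keratin gene Krt19, was called lower in fetal class 9 than in the mature luminal clusters (41.2 and 38.3 against 81.3 and 100.6 CPM; edgeR adjusted p = 5.7e-06), and 6 were not called. Luminal progenitor markers summed to 535 and 572 in fetal class 9, against 269 and 302 in the mature luminal clusters and 761 and 769 in adult luminal progenitor classes 3 and 7. Mature luminal markers summed to 662 and 761 in fetal class 9, against 1589 and 1641 in the adult mature luminal clusters, 636 and 702 in luminal progenitors and 637 and 676 in basal cells. Basal markers stood at 513 and 486, above the adult mature luminal clusters at 242 and 251. That was also above luminal progenitors at 370 and 390 and below adult basal cells at 1667 and 1531. By these markers class 9 was luminal-like with progenitor and some basal-marker accessibility, and its mature luminal marker level was close to that of the adult progenitor and basal clusters. Fetal class 4, the fetal cluster with more reads over basal markers, had 643 and 771 CPM over mature luminal markers. That level was therefore not particular to class 9. In sums over nuclei, fewer open copies in each nucleus and fewer nuclei with an open copy cannot be told apart.

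The promoters of 4 genes are shown first, because the results turn on them: reads at the start of Areg, Foxa1 and Pgr were lower in the fetal nuclei, whereas reads at the start of Gata3 were at least as high. Each is the 250 bases before the RefSeq start (GRCm38.p6, which is mm10), 5′ to 3′ on the gene's own strand, with matches to a forkhead motif (TGTTTAC) or an AP-1 motif (TGANTCA) on either strand in capitals. The capitals in Foxa1 are the forkhead letters read on the other strand, and the other 3 windows held neither motif.
Areg, amphiregulin, chr5:91139349-91139598, plus strand: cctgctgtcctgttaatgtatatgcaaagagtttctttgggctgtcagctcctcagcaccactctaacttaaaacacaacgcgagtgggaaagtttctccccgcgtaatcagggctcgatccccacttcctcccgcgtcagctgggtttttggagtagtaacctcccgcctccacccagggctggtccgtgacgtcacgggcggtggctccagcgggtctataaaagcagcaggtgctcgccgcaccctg
Foxa1, chr12:57546112-57546361, minus strand: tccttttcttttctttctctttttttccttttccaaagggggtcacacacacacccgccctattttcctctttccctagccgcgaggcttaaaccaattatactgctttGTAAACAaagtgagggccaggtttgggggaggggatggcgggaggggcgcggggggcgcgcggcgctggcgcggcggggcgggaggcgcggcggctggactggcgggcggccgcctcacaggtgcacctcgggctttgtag
Pgr, progesterone receptor, chr9:8899583-8899832, plus strand: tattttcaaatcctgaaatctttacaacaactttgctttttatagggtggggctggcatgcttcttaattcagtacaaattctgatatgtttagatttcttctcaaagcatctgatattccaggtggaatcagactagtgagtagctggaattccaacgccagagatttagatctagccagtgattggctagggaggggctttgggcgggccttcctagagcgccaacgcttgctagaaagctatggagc
Gata3, chr2:9878601-9878850, minus strand: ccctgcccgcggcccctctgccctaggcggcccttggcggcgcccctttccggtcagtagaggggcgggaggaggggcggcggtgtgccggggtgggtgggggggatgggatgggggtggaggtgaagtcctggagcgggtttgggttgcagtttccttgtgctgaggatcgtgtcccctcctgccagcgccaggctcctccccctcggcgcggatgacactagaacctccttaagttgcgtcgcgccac

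Of the 15 hormone-sensing genes followed here, the gene spans of 10 were lower in the fetal nuclei, none was higher and 5 did not differ by the test. Across all 17721 gene spans tested, 29.0% were called and 14.6% were called lower, at a Benjamini-Hochberg adjusted p under 0.05 in edgeR's quasi-likelihood test. The median log2 difference was -0.79 over the 15 genes and 0.00035 over all genes tested. The genes were picked because they mark adult mature luminal cells, so a lower fetal level was the more likely direction from the start.

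The 3 receptor genes Prlr, Pgr and Esr1 were all lower. Prlr, the prolactin receptor, gave 43.9 and 70.5 CPM in the fetal replicates and 288 and 284 in the adult replicates. Both fetal values lay far below both adult values, a log2 difference of -2.27 ± 0.16 (SE; adjusted p = 1.3e-10). Pgr, the progesterone receptor, gave 57.0 and 60.1 CPM in fetal and 242 and 257 in adult nuclei, a log2 difference of -2.09 ± 0.13 (SE; adjusted p = 4.0e-11). Esr1, the oestrogen receptor alpha, gave 104 and 119 CPM against 272 and 328, a log2 difference of -1.42 ± 0.13 (SE; adjusted p = 9.4e-09).

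Among transcription factors the genes divided. Foxa1 gave 70.6 and 79.2 CPM in fetal and 209 and 217 in adult nuclei, a log2 difference of -1.50 ± 0.13 (SE; edgeR adjusted p = 7.4e-09); its span with flanks overlaps that of Ttc6. Cited1, a transcriptional cofactor of oestrogen receptor signalling, gave 24.0 and 25.5 against 42.1 and 43.8 CPM, and Spdef, an ETS factor of luminal cells, 41.6 and 42.6 against 74.7 and 63.7 CPM; both were called lower. The Spdef span overlaps that of Pacsin1 and shares reads with it. The Cited1 call was lost against adult class 11 alone (log2 difference -0.41, adjusted p = 0.32). Gata3 did not follow. It gave 352 and 395 CPM in fetal and 378 and 404 in adult nuclei, overlapping ranges with a log2 difference of -0.06 ± 0.10 (SE; adjusted p = 0.69). Tbx3, a T-box factor needed for the mammary bud to form, gave 207 and 228 against 233 and 201 CPM, a log2 difference of 0.01 ± 0.12 (SE; adjusted p = 0.97). Xbp1, a secretory-pathway factor, gave 50.7 and 40.8 against 58.6 and 60.5 CPM and missed the threshold in edgeR (adjusted p = 0.088).

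Among hormone targets and mediators, Areg fell by the most of the 15 genes. It gave 13.6 and 18.9 CPM in fetal and 104 and 112 in adult nuclei, a log2 difference of -2.68 ± 0.19 (SE; edgeR adjusted p = 2.7e-10). Areg is an EGF-family ligand through which oestrogen drives duct growth. Greb1, an oestrogen-induced gene, gave 44.8 and 55.5 against 113 and 131 CPM (log2 difference -1.26 ± 0.16, SE). Wnt4, a progesterone target that signals to basal cells, gave 73.3 and 82.0 against 135 and 126 CPM (log2 difference -0.74 ± 0.14, SE). Tnfsf11, which encodes RANK ligand, gave 14 and 22.7 against 25.9 and 28.6 CPM and was not called in edgeR (adjusted p = 0.14), with a log2 difference of -1.43 against adult class 11 alone, where it was called, and of 0.07 against class 2 alone, where it was not. Of the surface markers, Ly6a, which encodes Sca-1, was called lower from few reads (9.50 and 6.43 against 16.8 and 22.4 CPM), a call lost without fetal replicate 2, without adult replicate 2 and against class 11 alone. Prom1, which encodes the surface protein CD133, gave 67.0 and 81.0 against 84.8 and 81.2 CPM and was not called.

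**Figure D1:**
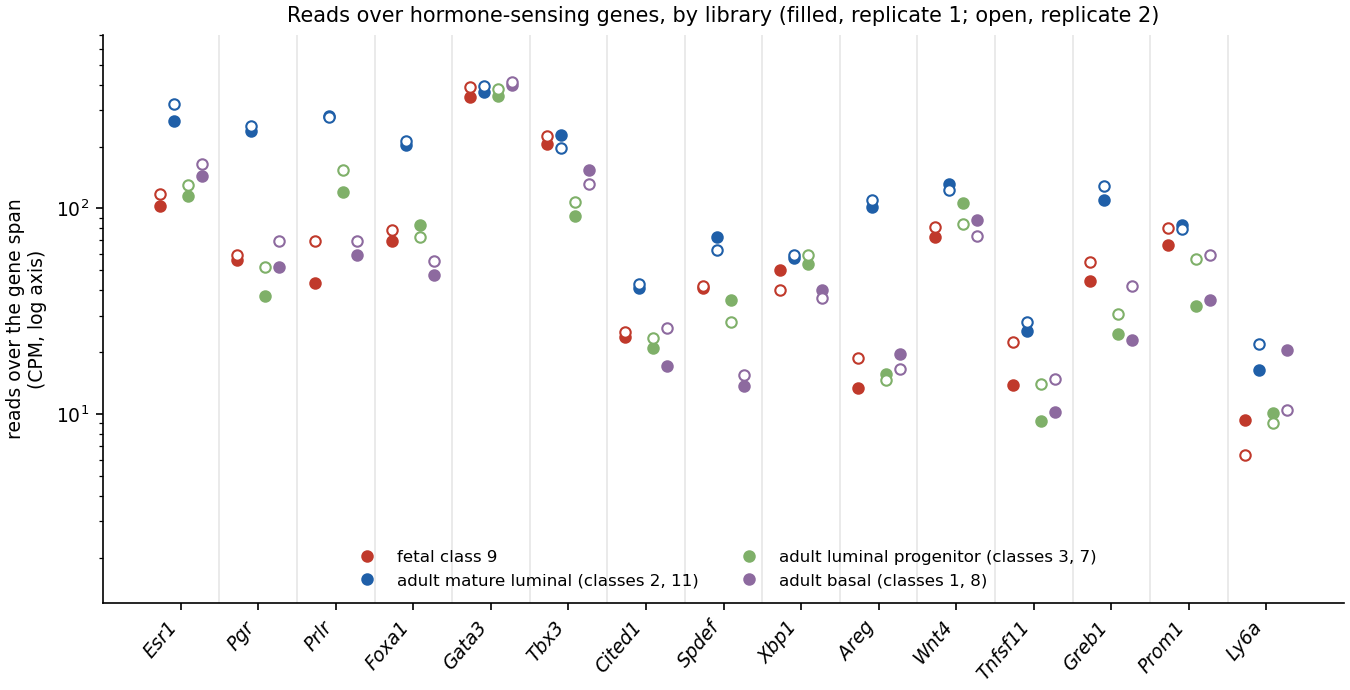
Reads over the spans of 15 hormone-sensing genes in CPM on a log axis, with a point for each library (filled, replicate 1; open, replicate 2), in fetal class 9 (red), adult mature luminal (blue), adult luminal progenitor (green) and adult basal nuclei (purple). Fetal points of Areg, Pgr, Esr1 and Foxa1 sit among or just below those of the other adult clusters, while those of Gata3, Tbx3 and Prom1 sit beside the adult mature luminal points.

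Set beside the other clusters, on the scale of 10 sums and as a description with no test, the fetal levels of Areg and Foxa1 lay near those of luminal progenitors. Areg stood at 13.4 and 18.6 CPM in fetal class 9, at 15.6 and 14.7 in luminal progenitors and at 19.6 and 16.5 in basal cells. Foxa1 stood at 69.8 and 78.1 in fetal class 9 and at 83.3 and 73 in luminal progenitors. Fetal class 4 had 68.6 and 62.8 CPM of Foxa1 and 22.9 and 25.9 of Areg. Esr1, at 102 and 118 in fetal class 9, lay below basal cells (144 and 164) and fetal class 4 (143 and 150). Luminal progenitors had 115 and 130 CPM of Esr1. Pgr, at 56.4 and 59.3, lay above luminal progenitors (37.4 and 51.6) and below fetal class 4 (65.7 and 76.7). Basal cells had 52.0 and 69.8 CPM of Pgr. Prlr was lower in fetal class 9, at 43.4 and 69.6, than in luminal progenitors, at 120 and 153. Gata3 was alike in all of them: 348 and 390 in fetal class 9, 370 and 396 in mature luminal cells, 352 and 380 in luminal progenitors and 400.3 and 412 in basal cells. Reads over the Gata3 span did not separate these clusters. The fetal level of Tbx3 lay beside the mature luminal one and above the other adult clusters, at 205 and 225 CPM in fetal class 9 and 228 and 197 in mature luminal cells, against 92.3 and 107 in luminal progenitors and 153 and 132 in basal cells. Fetal class 4, the fetal cluster with more reads over basal markers, had 164 and 227 CPM of Tbx3, so this level was not particular to class 9. Prom1 stood at 66.2 and 79.9 in fetal class 9, against 33.6 and 56.8 in luminal progenitors and 35.8 and 59.3 in basal cells. Greb1, at 44.3 and 54.7 in fetal class 9, lay below mature luminal cells (110.4 and 129) and above luminal progenitors (24.6 and 30.7) and basal cells (23.0 and 42.1), while fetal class 4 had 50.001 and 72.5. Spdef, at 41.2 and 42.1, likewise lay between mature luminal cells (73 and 62.4) and luminal progenitors (35.8 and 28.1), with 37.1 and 38.3 in fetal class 4.

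A smaller share of promoter regions than of gene spans was called. Of 15556 deposited promoter regions tested, each 1000 bases wide, 20.0% were called, 1627 higher and 1485 (9.55%) lower in fetal nuclei. Promoter regions were deposited and tested for 10 of the 15 genes, 11 regions in all, and 5 of the regions were called lower. At the Spdef promoter, chr17:27727986-27728985, 1 and 14 reads were counted in the fetal and 46 and 81 in the adult replicates, a log2 difference of -2.57 ± 0.48 (SE; edgeR adjusted p = 4.3e-06). The Areg region, chr5:91139085-91140084, holds the sequence shown above and gave 22 and 21.8 CPM in fetal and 78.0 and 86.5 in adult nuclei, with no overlap (log2 difference -1.91 ± 0.30, SE). The Pgr region, chr9:8899812-8900811, begins just before the start and gave 63.2 and 59.2 against 113 and 136 CPM (log2 difference -1.04 ± 0.22, SE). The remaining lower calls, at the first Esr1 start and at 1 of 2 Cited1 regions, were each lost under several alternatives; the Esr1 region gave 8.82 and 26.5 CPM in fetal and 30.3 and 52.7 in adult nuclei. At Wnt4 the promoter gave 51.4 and 55.8 CPM in fetal and 57.8 and 49.8 in adult nuclei, at Xbp1 83.8 and 63.9 against 93.2 and 80.8, and at Prom1 79.4 and 110.2 against 83.8 and 95.1. These 3 were not called, and nor were the low promoters of Greb1 and Tnfsf11.

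Foxa1, Gata3 and Prlr had no deposited promoter region, so windows of 1000 bases centred on RefSeq starts were counted as well, an alternative chosen after seeing the data. Of 13354 such windows 14.4% were called, 1071 (8.02%) higher and 854 (6.40%) lower. Without adult replicate 2 these were 642 and 356, and with scaling by total reads 987 and 564. The Foxa1 start gave 73.1 and 75.9 CPM in fetal and 158 and 184 in adult nuclei, a log2 difference of -1.20 ± 0.19 (SE; edgeR adjusted p = 6.1e-06). The Gata3 start went the other way, with 198 and 228 CPM in fetal and 154 and 160 in adult nuclei, a log2 difference of 0.45 ± 0.15 (SE; edgeR adjusted p = 0.038). That call was lost under 7 alternatives, DESeq2 among them (adjusted p = 0.11), while the direction held under all alternatives run. The upstream Prlr start gave 17.2 and 46.2 CPM in fetal and 36.6 and 28.2 in adult nuclei and was not called. The other Prlr starts, under the filter on low counts, held no fetal class 9 read. The adult mature luminal nuclei of the 2 replicates held 10 and 9 reads, and 19 and 12 reads, there. The second annotated Esr1 start gave 21.5 and 31.7 CPM in fetal and 21.1 and 29.9 in adult nuclei, overlapping values at a start inside the gene.

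The motif letters shown above, and those of other motifs, were counted over the same 250 bases of every tested start as a description. The forkhead letters TGTTTAC stood in 35 of the 854 starts called lower, or 4.10%, in 1.59% of those called higher and in 2.01% of all tested starts. The AP-1 letters TGANTCA stood in 91 of the starts called lower, or 10.7%, in 68 of the 1071 called higher, or 6.35%, and in 4.64% of all tested starts. The SOX letters ACAATGG stood in 2.43% of the starts called higher, in 1.76% of those called lower and in 1.498% of all tested starts.

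A larger share of distal regions was called. Of 65082 distal regions tested, 48.6% were called, 14272 (21.9%) higher and 17389 (26.7%) lower in fetal nuclei. The balance depended on the adult clusters and libraries used: against class 2 alone 13954 were higher and 13330 lower, against class 11 alone 8165 and 6922, and without fetal replicate 2 8878 and 17259. The median size of the log2 difference was 1.29 over all tested distal regions, 0.37 over promoter regions and 0.35 over gene spans. Distal regions held fewer reads, a median of 20 per library against 65.75 and 178.25, and the part of counting error in their larger sizes was not tested. Of 165 tested distal regions whose nearest gene was one of the 15, 69 were lower, 20 were higher and 76 were not called. All 9 regions at Foxa1 were lower, as were 9 of 11 at Pgr, 9 of 13 at Prlr, 9 of 14 at Esr1 and 6 of 8 at Areg. Gata3, with 46 regions, split into 9 higher, 9 lower and 28 not called, and Tbx3, with 19, into 3 higher, 4 lower and 12 not called. Of the 10 regions at Tnfsf11 none was lower and 2 were higher.

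For each gene the distal region with the most adult reads was described whatever its value. Choosing by adult reads favours a lower fetal value, and a region without fetal reads passed the filter through the adult reads alone, so these values are a description. Inside Esr1, at chr10:4624651-4625650, 0 and 11 reads were counted in the fetal and 132 and 176 in the adult replicates (log2 difference -4.16 ± 0.47, SE). Inside Prlr, at chr15:10200592-10201591, no fetal read was found against 120 and 146 adult reads. Inside Foxa1, at chr12:57543211-57544210, levels were 14.9 and 11.5 CPM in fetal and 62.8 and 47.4 in adult nuclei (log2 difference -2.09 ± 0.33, SE). The matching Gata3 region, chr2:9877995-9878994, holds the Gata3 start and gave 136 and 168 CPM in fetal and 104 and 97.2 in adult nuclei (log2 difference 0.61 ± 0.19, SE), a call lost without adult replicate 2 and without the filter on low counts. A region 74772 bases from Tnfsf11, at chr14:78382815-78383814, gave 73.6 and 50.4 CPM in fetal and only 16.4 and 24.4 in adult nuclei (log2 difference 1.55 ± 0.30, SE); against adult class 11 alone it was not called (adjusted p = 0.072). The strongest adult regions nearest to Areg, Wnt4, Spdef and Tbx3 were not called, with values such as 62.7 and 52.3 CPM in fetal and 70.0 and 55.8 in adult nuclei at Wnt4, 112283 bases from the gene. Those of the remaining 6 genes were all called lower. Inside Pgr, at chr9:8964123-8965122, 4 and 5 fetal reads stood against 43 and 55 adult reads (log2 difference -2.72 ± 0.58, SE). Inside Greb1, at chr12:16752831-16753830, 2 and 4 reads stood against 41 and 97 (log2 difference -3.76 ± 0.60, SE). The region nearest to Cited1, chrX:102244018-102245017, held 0 and 6 fetal reads against 46 and 43, and that nearest to Xbp1, chr11:5490614-5491613, no fetal read against 24 and 39. At Prom1, chr5:44117988-44118987, 2 and 10 reads stood against 30 and 48, and inside Ly6a, chr15:74994938-74995937, 10 and 8 against 34 and 63. The Ly6a call was lost without fetal replicate 2 (log2 difference -0.70 against -1.63) and without adult replicate 2.

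**Figure D2:**
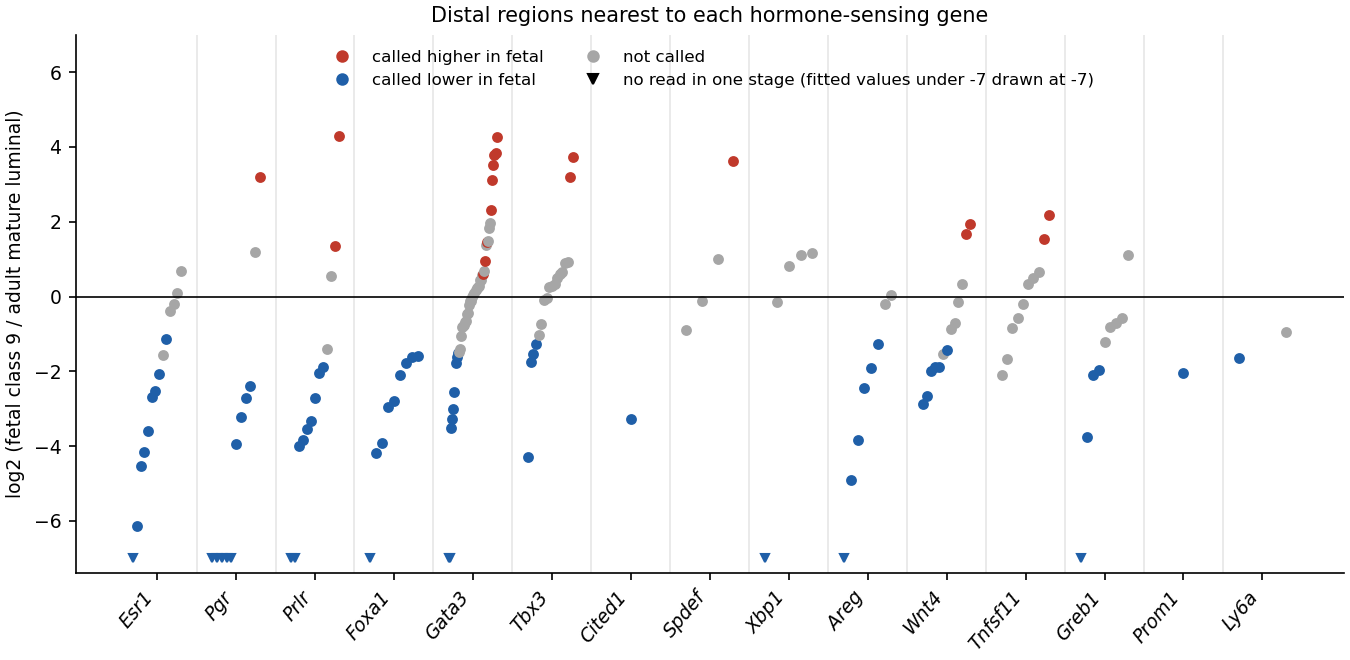
Log2 ratio of fetal class 9 to adult mature luminal reads for each tested distal region nearest to a hormone-sensing gene, sorted by value within the gene (red, called higher; blue, called lower; grey, not called; triangles, no read in one stage, with fitted values under -7 drawn at -7). All 9 regions at Foxa1 lie below 0, while the 46 regions at Gata3 lie on both sides.

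To see how much of the adult mature luminal programme was open before birth, distal regions were defined from adult nuclei alone. A region entered when it was at least 2-fold higher and called in the mature luminal clusters against the luminal progenitor clusters and also against the basal clusters. This gave 8570 regions. In fetal class 9, 7992 of them (93.3%) were called lower than in adult mature luminal nuclei, 3 were called higher and 575 were not called. Over all tested distal regions 26.7% were called lower. The definition uses the adult reads of the comparison, which by itself pushes these regions toward a lower fetal value, so no test was made of the set.

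At the median region, fetal class 9 had 8.46% of the adult mature luminal level, adult luminal progenitors 8.48%, adult basal cells 4.403% and fetal class 4, the fetal cluster with the higher basal marker sum (737 and 828 CPM), 5.97%. The fetal replicates taken singly gave 8.01% and 8.65%. On the scale of 10 sums the medians were 2.31 and 2.95 CPM in fetal class 9 and 28.7 and 31.5 in adult mature luminal nuclei. They were 2.65 and 2.57 in luminal progenitors, 0 and 1.68 in basal cells, and 0 and 2.28 in fetal class 4. Such levels rest on few reads per region, so the percentages are rough. Of the regions called lower, 2411 held at most 3 fetal reads. The definition itself holds the progenitor and basal levels at these regions low, so no order between fetal class 9 and those clusters is read from these medians. No fetal class 9 read was found in 1006 regions (11.7%), against 1912 (2.94%) of all tested distal regions. The set was chosen by high adult mature luminal reads. A region without fetal reads also passed the filter through the adult reads alone, so these shares are a description. In 279 (3.26%) of the set the fetal level was at least 50% of the adult one. When regions were instead defined in 1 adult replicate, by at least 20 reads and a 2-fold difference, and their level was read in the other, fetal class 9 reached 14.1% and luminal progenitors 13.7% of the adult level at 14419 regions defined in replicate 1. They reached 16.8% and 14.8% at 21296 regions defined in replicate 2.

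The programmes of the other adult lineages reached a higher share of their own level in the same fetal nuclei. At 2438 regions defined in the same way for luminal progenitors, fetal class 9 reached 46.0% of the luminal progenitor level, with medians of 16.2 and 16.7 CPM in fetal replicates and 36.5 and 34.7 in adult luminal progenitors. Adult mature luminal nuclei reached 18.2% there. At 4018 regions defined for basal cells, fetal class 9 reached 23.8% of the basal level, adult luminal progenitors 14.7% and adult mature luminal nuclei 7.44%. Each definition holds the other adult lineages low at its own set, and fetal reads were not part of it. Their shares therefore give no fair measure for the fetal ones. These are levels at sets of different size and are given side by side with no test between them.

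**Figure D3:**
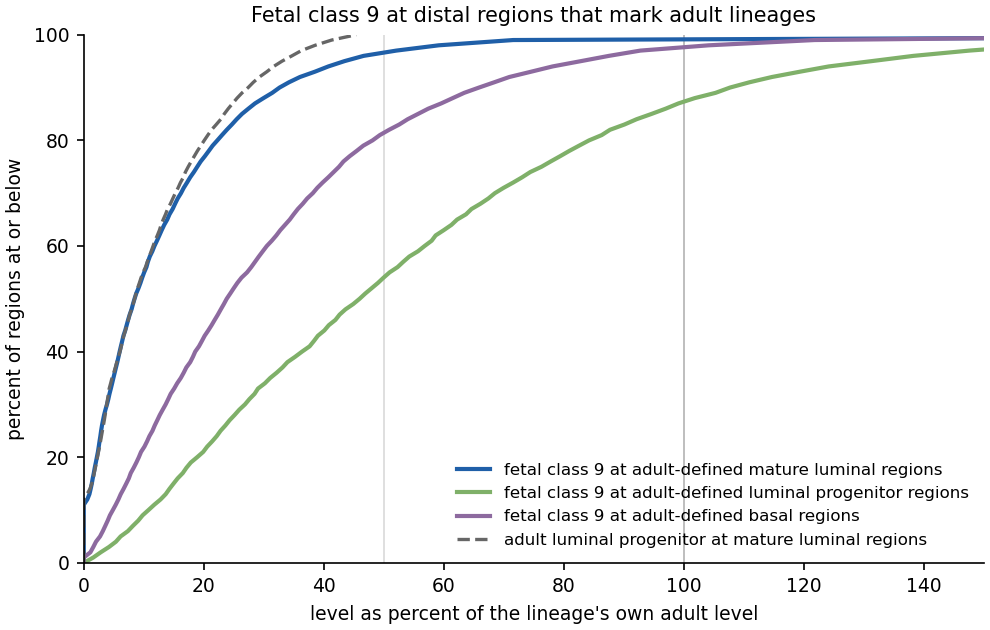
Cumulative share of adult-defined distal regions by the level of fetal class 9, in percent of the level in the lineage that defines the region: mature luminal (blue), luminal progenitor (green) and basal (purple), with adult luminal progenitors at the mature luminal regions (dashed). The blue and dashed lines have medians of 8.46% and 8.48%, from few reads per region, while the green line has its median at 46.0%.

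Of the 8570 regions, 39 had one of the 15 genes as their nearest gene, and 37 of these were lower in the fetal nuclei. They included all 7 at Foxa1, all 5 at Gata3, all 4 at Areg, all 4 at Wnt4 and all 3 at each of Esr1, Prlr and Greb1. That is near the 93.3% of the whole set, whose definition favours a lower fetal value, so the count says nothing particular to these genes. The 2 that were not called were both at Tbx3.

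A small group of the adult mature luminal regions was not called and lay within 2-fold of the adult level. By the fitted log2 differences of the 4 sums, 5.59% of the 8570 lay within 2-fold of the adult level, against the 3.26% at or above 50% of it by the ratio of mean levels on the scale of 10 sums, a different rule on a different scale. Of those within 2-fold by the fit, 398 were not called, with a median of 17.3 and 17.7 CPM in fetal class 9, 28.7 and 30.6 in adult mature luminal nuclei, 5.97 and 5.79 in luminal progenitors and 3.71 and 3.36 in basal cells. Their fetal medians thus lay below the adult mature luminal ones in both replicates. Fetal class 4 had 12.1 and 12.5 CPM at these regions. The rule that a region be within 2-fold of the adult level chose these regions, so their fetal levels are a description. The 5 with the most fetal reads were a region inside Celf4 (chr18:25714010-25715009), a region nearest to Wdr11 (chr7:129764074-129765073), a region where Mroh2a and Hjurp overlap (chr1:88261814-88262813), a region 3994 bases from Agxt (chr1:93130247-93131246), and a region at a Nrxn3 start (chr12:89811758-89812757). The region at Mroh2a and Hjurp gave 85.5 and 111 CPM in fetal class 9 and 111 and 99.7 in adult mature luminal nuclei, overlapping values with a log2 difference of -0.08 ± 0.20 (SE). Luminal progenitors had 21.2 and 17.4 CPM there on the scale of 10 sums, and fetal class 4 had 75.7 and 102. At Nrxn3, which encodes a neuronal adhesion protein, fetal class 9 gave 70.6 and 71.5 CPM, adult mature luminal nuclei 96.6 and 79.8, luminal progenitors 12.6 and 21.2, basal cells 40.8 and 52.0 and fetal class 4 99.9 and 84.2, the values of the last 3 on the scale of 10 sums. At Celf4, an RNA-binding protein gene, fetal class 9 gave 107 and 115 CPM, adult mature luminal nuclei 147 and 115 and luminal progenitors 41.1 and 67.5. Of the 5 regions, all but that at Mroh2a and Hjurp were called lower under at least 1 alternative, for example without adult replicate 2, with log2 differences of -0.62 at Celf4, -0.67 nearest to Wdr11, -0.69 nearest to Agxt and -0.66 at Nrxn3.

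Other regions of the set had almost no fetal read. Inside Dlgap1, at chr17:70796807-70797806, no fetal class 9 read was found against 335 and 283 adult reads, at least 129-fold lower when 3 reads over the fetal sums are taken as the floor. Inside Plrg1, at chr3:83059025-83060024, 0 fetal reads stood against 207 and 290 (at least 104-fold lower), and inside Gatb, at chr3:85579516-85580515, 0 against 208 and 217 (at least 88.6-fold lower). The region nearest to Gm826, chr2:160131159-160132158, and that inside Mcat, chr15:83550056-83551055, each held 2 fetal reads in all, against 195 and 242, and 206 and 215. Fetal class 4 had no read at the first 4 of these, and the adult luminal progenitor and basal clusters had at most 7.95 CPM at any of the 5. The floor of 3 reads covers counting error only.

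Other distal regions were open in fetal class 9 and had no adult mature luminal read. The 5 largest rises lay inside Pole2 (78 and 231 fetal reads), Wnt5b (83 and 212), Tedc1 (86 and 186), Grik3 (88 and 171) and M1ap (84 and 161). None of the 5 had a read in the adult mature luminal nuclei of either replicate. Their levels in the other adult clusters are not given here. Against a floor of 3 adult mature luminal reads these were at least 165-, 157-, 145-, 138- and 131-fold higher. The regions passed the filter through the fetal reads alone and were picked as the largest rises, so these folds are a description. The floor covers counting error only here too. Wnt5b encodes a Wnt ligand and Grik3 a glutamate receptor subunit. The largest falls, beside those in Dlgap1, Plrg1 and Gatb, were a region nearest to Adam24 (chr8:40658623-40659622) and a region inside Rab27b (chr18:70099435-70100434). They held 194 and 230, and 180 and 232, adult mature luminal reads, and neither had a fetal class 9 read.

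Among promoter regions, the largest rises were at the start of Wfdc18, with 83 and 128 reads in fetal and 0 and 2 in adult replicates, inside Otogl (62 and 182 against 0 and 4), beside Lmf1 (72 and 139 against 2 and 2), at the start of Frem2 (100 and 164 against 7 and 2) and beside Cuedc2 (80 and 157 against 4 and 7). Wfdc18 belongs to the whey acidic protein family of secreted proteins, and Frem2 encodes a protein of the basement membrane. The largest falls were inside Rnf224, with 1 and 0 fetal reads against 121 and 162, beside Pxylp1 (2 and 0 against 145 and 203), 1248 bases beyond the end of Pgr (0 and 2 against 116 and 159), inside Folr2 (0 and 2 against 93 and 172) and beside Unc5b (2 and 2 against 162 and 202). With so few reads in one stage the derived SE can lie below counting error, so counts are given in place of folds.

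Over gene spans the 10 largest rises included Thbs1, Sox10 and Lgr5. Thbs1, which encodes the matrix protein thrombospondin 1, gave 491 and 546 CPM in fetal and 21.3 and 33.3 in adult nuclei, a log2 difference of 4.23 ± 0.15 (SE; edgeR adjusted p = 2.0e-15). Sox10, a transcription factor of neural crest and of mammary stem-like cells, gave 99.1 and 109 against 10.5 and 6.68 CPM (log2 difference 3.63 ± 0.21, SE). Lgr5, an R-spondin receptor that marks stem cells in several epithelia, gave 152 and 194 against 33.8 and 35.3 CPM (log2 difference 2.34 ± 0.16, SE). The other 7 were Col9a3, Chst3, Rerg, Tafa5, Kirrel, Bcl11b and Fads2, with log2 differences of 2.15 to 3.30. The spans of Thbs1, Sox10, Col9a3, Lgr5 and Fads2 overlap other gene spans and share reads with them.

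The largest falls over gene spans, beside Areg and Prlr, were Cyp3a57, Sec14l4, Krt87, Il18rap, Ptpn5, Gpx3, Mtmr7 and Tnn. Cyp3a57, of a cytochrome P450 family, gave 1.81 and 5.02 CPM in fetal and 73.8 and 79.4 in adult nuclei (log2 difference -4.27 ± 0.27, SE). Ptpn5, a tyrosine phosphatase, gave 27.6 and 37.2 against 220 and 206 CPM (log2 difference -2.67 ± 0.16, SE), and Gpx3, a secreted glutathione peroxidase, 11.8 and 13.3 against 73.4 and 72.3 CPM (log2 difference -2.52 ± 0.20, SE). Cyp3a57, Sec14l4 and Krt87 belong to families of near-identical neighbours, so their values are uncertain where reads could fall on more than 1 copy. The spans of Krt87, Gpx3 and Mtmr7 overlap those of Krt7, Tnip1 and Vps37a.

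The wider pathway lists were read over gene spans, of which 14.3% were called higher and 14.6% lower over all genes. Of 8 hormone receptor genes, 3 were lower (Esr1, Pgr and Prlr), 1 was higher and 4 were not called, with a median log2 difference of -0.16. The higher one was Igf1r, the IGF-1 receptor, at 403 and 394 CPM in fetal and 204 and 231 in adult nuclei. Thrb, Nr3c1, Ghr and Vdr, the receptors for thyroid hormone, glucocorticoid, growth hormone and vitamin D, were the 4 not called. Of 11 transcription factors and cofactors, 4 were lower, the fourth being Esrrb, an orphan nuclear receptor, and none was higher (median -0.31). Of 13 targets and mediators, 5 were lower (Areg, Greb1, Ihh, Wnt4 and Stc2), and 2 were higher, Adamts18, a secreted protease that acts on the basement membrane, at 108 and 110.3 against 33.8 and 51.8 CPM, and Igfbp4, which binds insulin-like growth factors. The median over this list was -0.51.

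Of 14 progenitor and alveolar genes tested, 6 were higher, none was lower and 8 were not called, with a median of 0.71. Of the 8, Cd14 (-0.44), Ltf (-0.92), Wap (-0.41), Mfge8 (-0.30) and Plin2 (-0.38) had log2 differences below 0. The list was picked for progenitor and alveolar cells, so a higher level than in mature luminal nuclei was the more likely direction. Kit, a receptor tyrosine kinase of luminal progenitors, gave 46.6 and 73.1 CPM in fetal and 6.04 and 8.52 in adult nuclei (log2 difference 3.04 ± 0.26, SE). Csn3, the milk protein kappa-casein, gave 33.9 and 61.9 against 2.68 and 6.35 CPM (log2 difference 3.38 ± 0.33, SE). Aldh1a3, Elf5, Ehf and Lalba were the other 4, Lalba from few reads. Of 16 tested genes of the fetal gland and bud, 8 were higher and 1, Msx2, was lower (median 0.60). Sox11, at 71.0 and 88.6 against 6.26 and 8.35 CPM, and Hmga2, a chromatin protein of embryonic tissues, at 337 and 287 against 77.4 and 66.5 CPM, led them after Sox10. Sox10 and Hmga2 were not low in the other adult clusters: on the scale of 10 sums, luminal progenitors had 92.6 and 103 CPM of Sox10 and 221 and 226 of Hmga2, and basal cells 74.95 and 62.2 and 233 and 251. Sox11 stood at 13.1 and 16.0 CPM in luminal progenitors and at 11.9 and 12.6 in basal cells. AP-1 genes encode stress- and growth-responsive bZIP factors and their partners. Of 11, 5 were lower (median -0.31), with Fosb at 181 and 152 against 404 and 357 CPM. The 2 higher ones included Bach2, at 683 and 742 against 281 and 308 CPM. On the scale of 10 sums, Bach2 stood at 632 and 673 CPM in luminal progenitors and at 629 and 603 in basal cells.

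Markers of other cell types were read in the same way. Of 10 basal markers 6 were called higher in the fetal nuclei and none lower, with Krt14 at 59.7 and 49.6 CPM against 4.03 and 4.01 and Trp63 at 121 and 117 against 37.4 and 44.3. Over all gene spans tested, 14.3% were called higher and 14.6% lower. Adult mature luminal cells had the lowest basal marker sum of the clusters compared, so a higher fetal level was the more likely direction. Of 5 stromal markers tested 1 was higher, Pdgfrb, and the 6 stromal markers summed to 145 and 151 CPM in fetal class 9 and to 108 and 111 in adult mature luminal nuclei. Endothelial markers summed to 133 and 149 against 133 and 120 CPM, with Pecam1 called higher of 4 tested, and immune markers to 55.5 and 48.2 against 56.6 and 58.3. Of the epidermal markers Lor was lower. No marker was at 0 in both fetal sums. The part of basal or stromal chromatin in the differences above was not tested.

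The authors' deposited motif scores are, by the name of the deposit, chromVAR deviations, which give the relative openness of regions that hold a motif, centred near 0 and with no unit. Means over the nuclei of each library were compared with limma, and 329 of 427 motifs (77.0%) were called, 154 (36.1%) higher and 175 (41.0%) lower, so sizes are given beside the calls.

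The Foxa1 motif had the largest difference of all. Its mean score was -1.63 and -2.04 in the fetal and 3.82 and 4.36 in the adult replicates, a difference of -5.92 ± 0.23 (SE; limma adjusted p = 0.00044). The fetal scores lay below those of adult luminal progenitors, -0.98 and -1.13, and above those of fetal class 4, -2.53 and -2.77. All 23 forkhead motifs were lower, with a median difference of -2.47. They share letters, and several columns of the table are identical, so they are not independent of each other. All 20 AP-1 motifs were lower too, with Smarcc1, whose motif in this collection is of the AP-1 kind, at -3.99 and Fos at -3.82. Of 31 nuclear receptor motifs 29 were lower, by less: the Esr1 motif scored -0.26 and -0.40 in fetal and 0.68 and 0.88 in adult nuclei, a difference of -1.11 ± 0.10 (SE; limma adjusted p = 0.00083). The motif of Pgr (-0.05 ± 0.04, SE) was not called, nor was that of Stat5a, which acts downstream of the prolactin receptor.

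Among the 154 motifs with higher fetal scores were all those of the NFI and SOX families, with median differences of 2.39 and 1.41. Nfix led at 1.43 and 1.97 in fetal and -1.33 and -1.47 in adult nuclei, a difference of 3.10 ± 0.19 (SE; limma adjusted p = 0.00049), and all 4 NFI motifs were higher. All 12 SOX motifs were higher, with Sox4 at 2.59 and Sox9 at 2.42. Set beside other clusters with no test, Nfix in fetal class 9 lay above adult basal cells (-0.94 and -0.96) and fetal class 4 (0.19 and 0.63). Nfic, at 0.73 and 1.07 in fetal class 9, lay near adult basal cells (0.77 and 0.78). Sox9, at 0.88 and 1.07, lay near fetal class 4 (1.21 and 1.04) and above adult basal cells (0.21 and 0.29). The 2 GATA and 2 TEAD motifs were higher by smaller amounts, and so were 2 of 6 STAT motifs and 2 of 3 of the p53 family. The other 4 STAT motifs were not called, and Trp53 was called lower, at -0.63. Of 19 ETS motifs 4 were higher and 13 were lower. Elf5 and Ehf, ETS factors of luminal progenitors, were higher than in adult mature luminal nuclei by 0.95 and 0.69, at 0.19 and 0.31 for Elf5, still below the 1.79 and 1.597 of adult luminal progenitors. The Gata3 motif differed little (0.23 ± 0.05, SE), and that call was lost without fetal replicate 2 and without adult replicate 1. The Ctcf motif, of an insulator protein, did not differ by the test (-0.03 ± 0.16, SE).

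**Figure D4:**
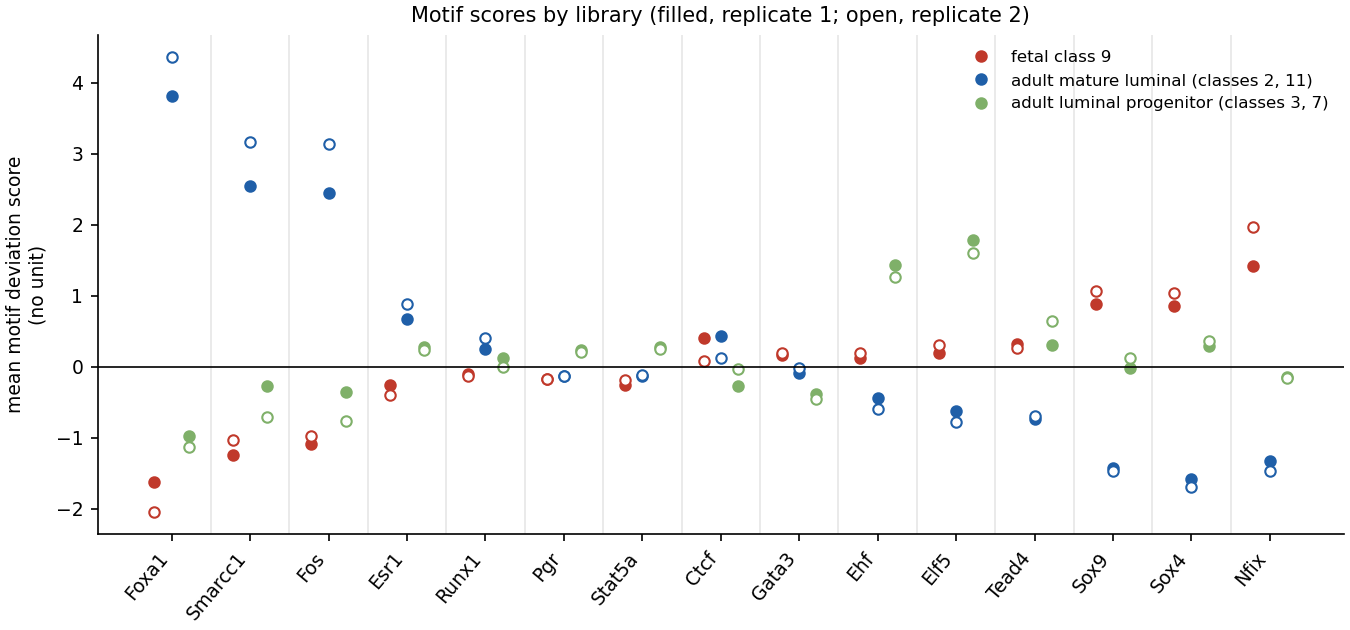
Mean deviation score of 15 motifs in each library (filled, replicate 1; open, replicate 2) for fetal class 9 (red), adult mature luminal (blue) and adult luminal progenitor nuclei (green). Fetal scores of Foxa1 (-1.63 and -2.04) and Fos lie below 0 and below the progenitors, those of Sox9, Sox4 and Nfix above both adult groups, and those of Pgr and Stat5a beside the adult mature luminal scores.

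Nuclei were then read singly. The 10 fetal nuclei placed in classes 2 and 11 are not among the class 9 nuclei, so low shares of adult-like scores were in part set by the clustering, and they are given as a description. The adult reference was the mean over the 2 adult libraries of the 5th percentile of the Foxa1 score in classes 2 and 11, which was 1.30. Above it lay 8 of 385 fetal class 9 nuclei in replicate 1 (2.08%) and 12 of 652 in replicate 2 (1.84%), against 1.41% and 0.994% of adult luminal progenitor nuclei. The exact 95% binomial intervals, which cover counting error only, were 0.901% to 4.05% and 0.955% to 3.19% for the fetal shares. No fetal nucleus reached the adult median of 3.94, which allows a share of up to 0.779% and 0.460% in the 2 libraries. Among nuclei with at least 4000 reads, where the adult 5th percentile was 2.08, the fetal shares were 0.676% (2 of 296) and 0.911% (5 of 549), while none of 489 and 527 luminal progenitor nuclei lay above it, which allows shares of up to 0.613% and 0.569%. The Esr1 score overlapped widely. Above its adult 5th percentile lay 74.3% and 68.4% of fetal class 9 nuclei, 89.8% and 89.1% of luminal progenitor and 74.6% and 72.9% of basal nuclei, so the share did not set fetal class 9 apart from adult basal nuclei.

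**Figure D5:**
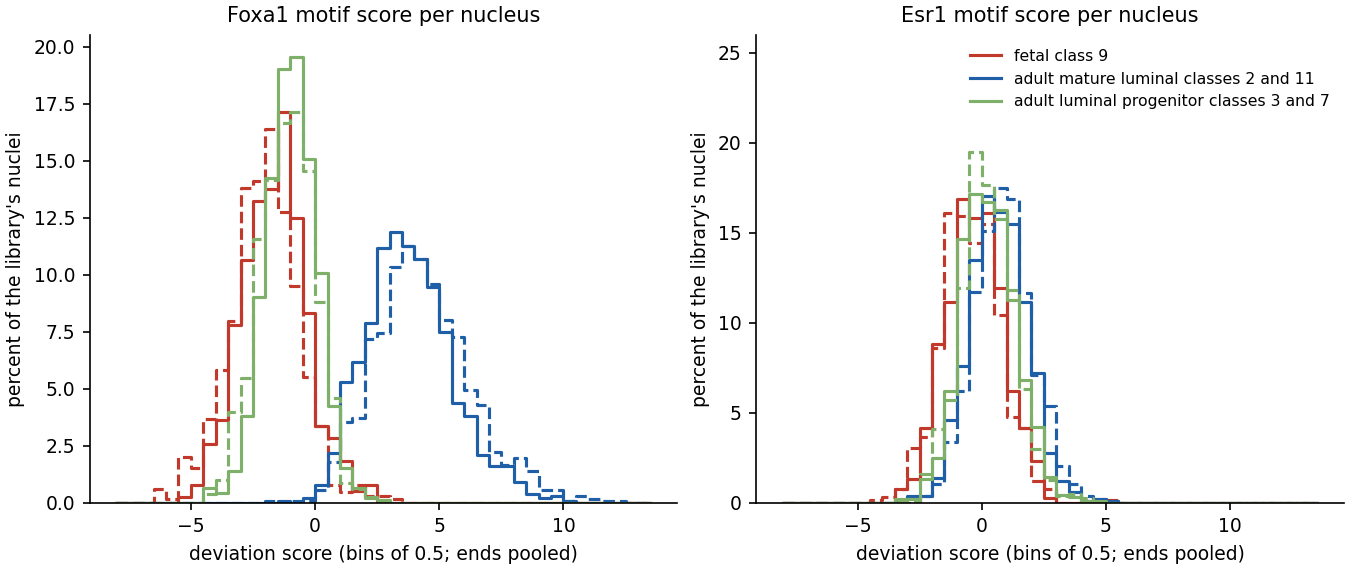
Distribution of the Foxa1 and Esr1 motif scores over single nuclei, in percent of the nuclei of each library (solid, replicate 1; dashed, replicate 2), for fetal class 9 (red), adult mature luminal (blue) and adult luminal progenitor nuclei (green). The Foxa1 scores of fetal and adult mature luminal nuclei hardly overlap and no fetal nucleus reaches the adult median of 3.94, while the Esr1 scores of all 3 groups overlap.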

How the data were processed

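Single-nucleus ATAC-seq reads of 2 fetal and 2 adult libraries of CD1 mouse mammary epithelium were used. The submitters' processing notes name Bowtie2, MACS2, bedtools and the mm10 build, without versions or roles. The authors deposited read positions with nucleus barcodes, 145453 distal and 19204 distinct promoter regions of 1000 bases, and a table with a chromVAR deviation score for each of 427 motifs (388 distinct), a read count and a cluster number per nucleus, per the file headers. The filters on reads and nuclei, and any shift of cut sites, are not given in the sources used here. Barcodes were shared out with 20 nuclei in each of 768 wells, per the labels, so some barcode pairs can be shared, and no doublet caller was run. A deposited table of gene scores and a table of co-accessibility name no library and were not used.

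Reads overlapping a region by at least 1 base were summed over the nuclei of each group and library, and counts entered edgeR's quasi-likelihood test (edgeR 4.0.16, R 4.3.3), two-sided, with TMM scaling, a minimum mean count of 10 per library for a feature to be tested, and Benjamini-Hochberg adjustment over all features. CPM are reads per 1e6 reads in tested features after TMM. SE are the absolute log2 difference divided by the square root of the F statistic, and can understate counting error where reads are few. Mean motif scores per library were compared with limma 3.58.1. Gene spans are RefSeq spans (GRCm38.p6, the same build as mm10) with 2000 bases on either side, and regions were assigned to the nearest span. Sequences are RefSeq's. The scripts were tested on simulated data with fewer changed regions and less spread than the distal data here. That test covers the code and not the error rates of these data. DESeq2 1.42.0 was an alternative, beside other scalings, filters, adult clusters, read placement, nuclei with at least 4000 reads and leaving out each library.

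Named features were the 5 largest rises and falls among called distal and promoter regions whose stages did not overlap (mean of at least 50 reads), 10 for gene spans (mean of at least 200 reads) and 5 for motifs, plus the 15 hormone-sensing genes and fixed motifs whatever their values, and examples from the lists. Members with too few reads, or with no span, are not in the counts of tested members. One gene was taken out of the lists and their counts and is not reported here. The nuclei, genes and lists were chosen with earlier results of these data known. The RefSeq start windows, and with them the second Esr1 start and the promoter letters, were added after values were seen.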

Additional observations from a re-analysis of the deposited data

How the results depend on the processing

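Of 1468 values recomputed for named features under the alternatives, 1380 kept direction and side of the threshold, 20 gained a call, 31 lost one and 37 changed sign. Every sign change was of a value that was not called. The number of distal regions called, 31661 in the report, was 5840 with a mean of at least 50 reads (fewer regions tested) and 15087 against adult class 11 alone, and 24737 to 34048 when a library was left out. The median log2 difference of all tested distal regions, -0.14, was -0.25 with scaling by total reads and -0.45 without fetal replicate 2, and was above 0 against class 11 (0.13), without a filter (0.058), against class 2 (0.053) and without adult replicate 1 (0.0086). Promoter calls, 3112, were 1788 with DESeq2, 1455 with the stricter filter, 1231 against class 11 and 1896 to 2527 without a library. Gene span calls, 5135, were 3406 with DESeq2 and 3301 to 4556 without a library. Start window calls, 1925, were 1087 with DESeq2, 1058 with the stricter filter, 726 against class 11 and 998 to 1524 without a library. The shares of starts with motif letters were computed from the calls of the report alone. Motif calls, 329, were 270 to 284 without a library. The cause of the differences with DESeq2 and against class 11 was not tested.

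The share of the adult-defined mature luminal regions called lower, 93.3%, was 94.7% with a 4-fold definition, 84.9% when defined against luminal progenitors alone, 76.3% and 69.5% when defined in adult replicate 1 or 2 by fold and reads, 94.1% with class 11, 95.2% with scaling by total reads, and 84.7% to 91.1% without a fetal library.

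These log2 differences changed sign. At distal regions with the stricter filter they were 0.057 at Spdef, 0.026 at Wnt4 and 0.091 at Mroh2a/Hjurp. Against class 11 they were 0.081 at Wnt4, 0.096 at Celf4 and 0.089 nearest to Wdr11, and by read midpoint 0.23 at Spdef. Without a library they ran from -0.47 to 0.046 at Spdef, -0.49 to 0.17 at Areg, -0.51 to 0.25 at Wnt4 and -0.38 to 0.13 at Mroh2a/Hjurp. The Wnt4 promoter gave -0.0061 with DESeq2, -0.0017 with its size factors, -0.026 without a filter, -0.11 against class 2, -0.016 in nuclei with at least 4000 reads and -0.12 to 0.087 without a library. Against class 11 the promoters gave -0.996 at Tnfsf11, -0.45 at Greb1 and -0.36 at Prom1. Prom1 gave -0.0021 by read midpoint and -0.16 to 0.28 without a library, and Tnfsf11 -0.31 to 1.02. Over gene spans Tbx3 gave -0.0095 without a filter, -0.077 against class 2 and -0.097 to 0.11 without a library. Gata3 gave 0.042 against class 11 and -0.15 to 0.016 without a library, and Tnfsf11 0.071 against class 2. The Pgr motif gave 0.088 against class 11, and the Ctcf motif -0.19 to 0.13 without a library. The upstream Prlr start gave -0.11 by read midpoint and -0.89 to 0.52 without a library.

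With the replicate number as a block, 28331 distal regions, 3062 promoter regions, 6418 gene spans, 2020 start windows and 310 motifs were called. The labels do not pair the replicates, and the deviations of equal numbers correlated at 0.03 over distal regions, 0.04 over promoter regions and 0.18 over gene spans with only 2 pairs. Over the named features the block added the call of Xbp1 (-0.41) and changed no other.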

Other observations

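At the 4018 adult basal regions, fetal class 9 reached at least 50% of the basal level in 746 (18.6%), and fetal class 4 had a median of 52.5% of that level. In 1340 (15.6%) of the 8570 adult mature luminal regions both fetal class 9 libraries lay above every luminal progenitor and basal sum. The definition holds the progenitor and basal levels low at these regions. The matching share over all tested distal regions was not counted, so no order between the clusters is read from this count. The fetal level reached 50% of the mature luminal one in 279 of the 8570.

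Within the adult group, the Pgr motif score was -0.09 and -0.06 in class 2 and -0.27 and -0.25 in class 11, with fetal class 9 at -0.17 and -0.17 between them. The Foxa1 motif score was 3.697 and 4.2 in class 2 and 4.30 and 4.66 in class 11. The promoter regions held 24.0% and 21.6% of reads in class 2, 19.5% and 17.1% in class 11 and 22.7% and 20.9% in fetal class 9, and their part in the differences between stages was not tested.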
